A study of Mus musculus with 12 samples.

Results

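The genes described here encode the acid compartment of the cell: 16 subunits and accessory proteins of the vacuolar proton pump (V-ATPase), 9 cathepsins and related proteases with legumain, 5 other luminal proteins, 6 lysosomal membrane proteins, and the transcription factors Tfeb and Tfe3. They were taken as a list of 38 symbols, and each was matched to its row among the 50686 genes of the count tables. All 38 were found in all 12 libraries, and all 38 passed the filter on low counts. The lowest count of any member in any library was 32, for Ctsl.

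Poly(A) RNA was sequenced from splenic B cells sorted as live, B220-positive and reporter-positive, from 12 mice. YC mice (n = 3), the normal controls, carried YFPstopF/+ and Cg1Cre/+, and their YFP-positive cells were taken. BIC mice (n = 3) are a model of activated B cell-type diffuse large B cell lymphoma and carried Blimp1F/F, IKK2castopF/stopF and Cg1Cre/+. The pBIC mice (n = 6) carried p53F/F in addition to the BIC alleles, and GFP-positive cells were taken from both lymphoma models. Every group therefore shared the Cg1Cre/+ allele, which acts in B cells that transcribe the constant region of IgG1, so that the controls are reporter-positive B cells and not all splenic B cells. BIC and pBIC differ from YC in several alleles at once, and in disease state. The labels used here give neither age nor sex.

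Lysosomes break down material from endocytosis and autophagy with hydrolases that work at low pH. The V-ATPase supplies that acid: its cytosolic V1 sector hydrolyses ATP, and its membrane V0 sector carries the protons across. In B cells the same compartment cuts antigen and the invariant chain for loading on MHC class II. TFEB and TFE3 are known to bind the CLEAR element, an E-box with the core CACGTG, in the promoters of many lysosomal genes.

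The promoters are shown first because this element is what is known to join many of these genes. Of the 38 members, 30 had an entry in the RefSeq promoter table (GRCm38.p6, from 250 bases before to 50 after each transcription start), with 38 promoters between them. The letters TCACGTG, searched on both strands, contain CACGTG and so overlap with it. They were present in 11 of the 30 genes (36.7%), against 4.29% of the 27025 genes in the table. CACGTG alone was present in 12 of the 30 genes (40.0%), against 8.09% of all genes. Among the members that changed in any comparison 3 of 10 with an entry held TCACGTG, and among those that did not change 8 of 20 did. The sequences below are examples: Lamp1, with the most copies, Mcoln1 and Ctsd as members that were not called, and Atp6v0d1 and Atp6v0e as members that were. They are written 5′ to 3′ on the gene's own strand, with capitals marking CACGTG and a flanking T or A that completes TCACGTG on either strand. Lamp1 (chr8:13159061-13159160, plus strand) held 4 copies, at 61, 45, 28 and 15 bases before the start. Mcoln1 (chr8:3500419-3500518, plus strand) held 2, and Atp6v0d1 (chr8:105566045-105566124, minus strand), Atp6v0e (chr17:26676336-26676415, plus strand) and the stretch of Ctsd shown (chr7:142387868-142387967, minus strand) held 1 each. Ctss (chr3:95526686-95526785, plus strand) is shown as a member that changed and had no match.
Lamp1: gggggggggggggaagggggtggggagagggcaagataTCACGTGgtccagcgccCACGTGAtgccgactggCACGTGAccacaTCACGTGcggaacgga
Mcoln1: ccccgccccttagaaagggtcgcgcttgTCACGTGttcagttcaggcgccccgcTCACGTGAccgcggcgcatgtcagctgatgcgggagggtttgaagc
Atp6v0d1: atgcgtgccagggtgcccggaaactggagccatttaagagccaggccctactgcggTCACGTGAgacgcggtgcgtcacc
Atp6v0e: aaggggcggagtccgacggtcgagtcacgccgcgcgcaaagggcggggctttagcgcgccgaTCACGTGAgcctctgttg
Ctsd: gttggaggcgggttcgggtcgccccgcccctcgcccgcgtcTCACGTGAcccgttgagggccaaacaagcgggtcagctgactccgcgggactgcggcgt
Ctss: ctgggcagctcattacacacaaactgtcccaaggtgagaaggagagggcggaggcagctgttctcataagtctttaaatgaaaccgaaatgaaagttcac
A match of letters is a description of the sequence and no measure of binding. No copy of either motif was found in the promoter windows of Tfeb and Tfe3 themselves.

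Total counts ran from 33127283 to 47067627 per library, and 17754 genes were tested. Values are CPM, counts per library total scaled to 1e+06 with TMM factors, and tests are edgeR quasi-likelihood tests over all 12 libraries, with Benjamini-Hochberg adjustment over all genes tested. A gene is said to have risen or fallen where its adjusted p was under 0.05. Trp53 lay at 137 to 147 CPM in YC, 72.1 to 209 CPM in BIC and 16.2 to 32.0 CPM in pBIC, so all 6 pBIC libraries were below the other 6. All 10 B cell markers were over 3 counts in every library, and their summed level was 9653 to 11193 CPM in YC, 9573 to 10242 CPM in BIC and 2908 to 7799 CPM in pBIC. Lysosomal genes are also abundant in phagocytes. The summed level of 18 macrophage and monocyte markers was 46.2 to 98.6 CPM in YC, 146 to 263 CPM in BIC and 22.9 to 357 CPM in pBIC, the highest being pBIC 6. Cd14, Fcgr1 and Mertk were at 0 in at least 1 YC library, and Cd163, Fcgr1, Marco and Timd4 in at least 1 pBIC library. The summed level of 12 neutrophil markers was 902, 1488 and 62.5 CPM in BIC 1, 2 and 3, against 2.80 to 274 CPM in YC and 5.77 to 79.2 CPM in pBIC. In sorted bulk RNA, fewer cells of a type and less RNA per cell cannot be told apart.

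In BIC against YC 7 of 38 members rose (Atp6v0e, Ctsb, Ctss, Ctsz, Npc2, Lamp2 and Npc1) and none fell, 18.4% against 8.88% of all genes tested, of which 3.90% rose and 4.97% fell. Of the 7, all but Atp6v0e belong to the contents or the membrane of the lysosome and not to its pump. For the count of 0 lower members, 2 were lower at an unadjusted p under 0.05 and DESeq2 called 0. Of all 17754 genes tested, 2330 were lower at that unadjusted p, and DESeq2 called 17.1% in either direction. The log2 fold change was positive for 28 of 38 members, with a median of 0.37, against 0.01 over all genes tested. The median was 0.83 over the 22 members outside the V-ATPase and 0.14 over its 16 genes. The groups did not overlap for 26 members, 22 of them higher in BIC, which is 68.4% against 45.2% of all genes tested (21.9% higher and 23.2% lower). Xist, a marker of sex, was at most 5.13 CPM in YC and at least 1680 CPM in BIC, so sex and group cannot be told apart here. With Xist as a covariate 5 members were called, with 5.73% of all genes called. Of the 7 above, only Ctss and Npc1 were among them.

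In pBIC against YC 3 members rose (Atp6v1c1, Gaa and Npc2) and 6 fell (Atp6v1h, Atp6v0a1, Atp6v0d1, Atp6ap1, Ctsh and Laptm5). That is 23.7% of the members, against 22.0% of all genes tested (11.8% higher and 10.2% lower), so the share called was near the background. The median log2 fold change was 0.14, against 0.10 over all genes. Of the 6 that fell, 4 belong to the V-ATPase, which is 25.0% of its 16 genes, against 10.2% of all genes tested. The groups did not overlap for 4 members that were higher and 6 that were lower in pBIC, against 12.9% and 13.2% of all genes tested (26.1% in all). In pBIC against BIC 6 members fell (Atp6v0e, Atp6ap1, Ctsh, Ctss, Npc1 and Laptm5) and none rose, 15.8% against 19.7% of all genes tested, of which 10.9% rose and 8.78% fell. At an unadjusted p under 0.05, 0 members were higher and 17 lower, and DESeq2 called 0 higher and 11 lower. Of all 17754 genes tested, 3424 were higher and 2729 lower at that unadjusted p. DESeq2 called 27.4% of all genes in either direction, against 28.9% of the members. The log2 fold change was negative for 33 of 38 members, with a median of -0.40, against 0.09 over all genes. The groups did not overlap for 7 members, all lower in pBIC (18.4%), against 21.6% of all genes tested, of which 11.7% were higher and 9.90% lower. The 3 comparisons share libraries, so their counts are not independent. In all, 15 members changed in at least 1 comparison and 23 in none. The share of all genes tested that changed in at least 1 comparison was not computed. The count of 15 therefore has no background to be read against.

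**Figure D1:**
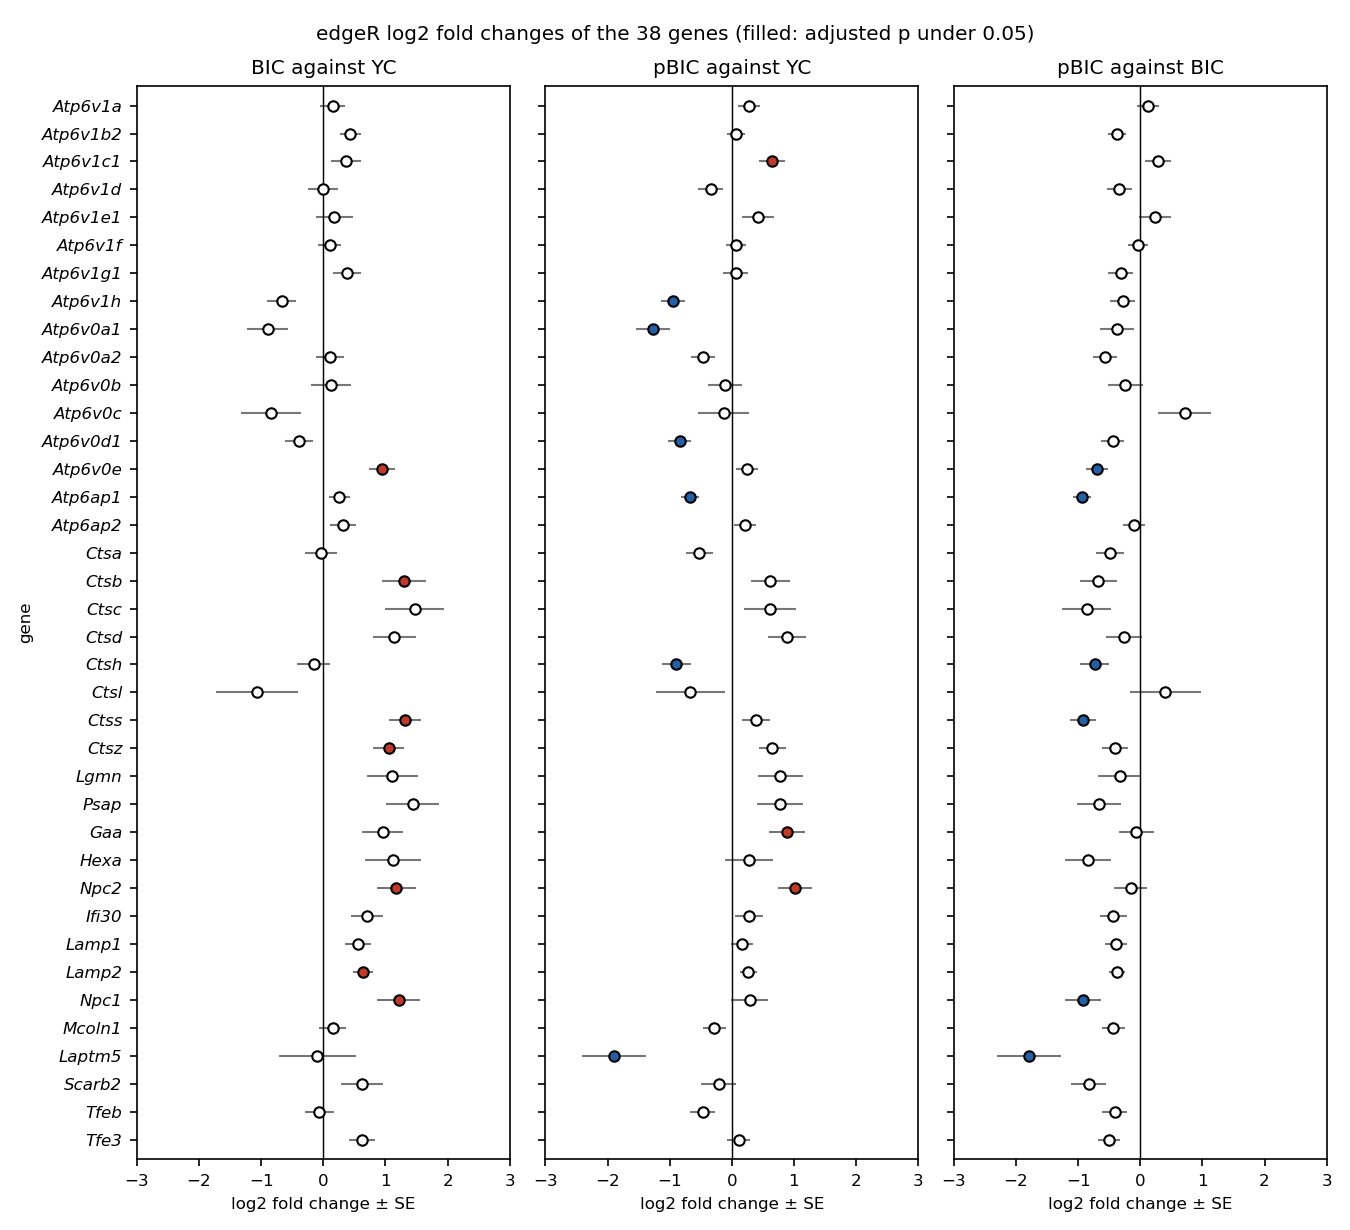
Log2 fold change (x axis) of each of the 38 members (rows, grouped by role) in the 3 comparisons, with the standard error from the edgeR test. In pBIC against BIC 33 of 38 points lie below 0, and in BIC against YC 28 lie above it.

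Removing single libraries changed these counts. In BIC against YC 3, 0 and 1 members were called without YC 1, 2 and 3, and 2, 1 and 4 without BIC 1, 2 and 3. Over all genes the share called under those settings was 3.04% to 5.66%, and the members' median log2 fold change 0.36 to 0.47. In pBIC against YC 4 were called without any 1 of the YC libraries, with 10.3% to 12.5% of all genes called. In pBIC against BIC 1 was called without BIC 1, 1 without BIC 2 and 3 without pBIC 3, with 7.68%, 8.93% and 16.4% of all genes called and medians of -0.41, -0.37 and -0.42. The mean log2 CPM of the macrophage markers, not their sum, was also used as a covariate. With it, 0 members were called in BIC against YC, 8 in pBIC against YC and 1 in pBIC against BIC. The share of all genes called was then 2.74%, 21.7% and 7.24%, and the members' median log2 fold change 0.33, 0.12 and -0.35.

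The 8 subunits of the V1 sector together had 185 to 217 CPM per kilobase of exon in YC, 216 to 246 in BIC and 168 to 257 in pBIC. Of the 8 none changed in BIC against YC or in pBIC against BIC (1 higher and 1 lower, and 0 higher and 1 lower, at an unadjusted p under 0.05; DESeq2 called 0 and 1). Atp6v1a, the catalytic A subunit, had 59.2, 65.9 and 65.6 CPM in YC, 68.1, 74.9 and 68.8 CPM in BIC, and 62.4 to 103 CPM in pBIC with a median of 70.8. The BIC libraries lay just above YC and the pBIC range overlapped both, and its edgeR adjusted p was 0.676 for BIC and 0.274 for pBIC against YC, and 0.650 between the models. Atp6v1h encodes subunit H, which couples ATP hydrolysis to proton flow.
Its level was 60.4, 59.9 and 64.7 CPM in YC, 37.8, 50.9 and 27.7 CPM in BIC, and 24.2 to 38.9 CPM in pBIC with a median of 32.2. Every pBIC library was below every YC library, and its level fell by 0.95 ± 0.20 (SE) on the log2 scale (edgeR adjusted p = 0.00570). That call remained under all 20 alternative settings. Atp6v1c1 encodes subunit C, which joins V1 to V0.
Its level was 45.4, 49.2 and 58.0 CPM in YC, 62.2, 63.2 and 71.0 CPM in BIC, and 58.8 to 114 CPM in pBIC with a median of 76.3. It rose in pBIC against YC by 0.65 ± 0.21 (log2, edgeR adjusted p = 0.0446), with no overlap between the groups. The call was lost without any 1 of 9 libraries (YC 1, 2 and 3, BIC 1, 2 and 3, and pBIC 1, 3 and 6), with an adjusted p of up to 0.164, and with size factors by relative log expression. The other 5 V1 subunits did not change in any comparison.

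In the V0 sector 1 of 6 subunits rose in BIC against YC, 2 fell in pBIC against YC and 1 fell in pBIC against BIC. The matching shares of all genes tested were 3.90%, 10.2% and 8.78%. Atp6v0e, a small membrane subunit, had 80.6, 60.0 and 61.8 CPM in YC, 122, 135 and 132 CPM in BIC, and 55.6 to 96.1 CPM in pBIC with a median of 83.1. All 3 BIC libraries were above all others. It was 0.94 ± 0.21 higher in BIC than in YC (log2, edgeR adjusted p = 0.0177) and fell by 0.70 ± 0.18 in pBIC against BIC (adjusted p = 0.0175). The first call was lost without YC 2, YC 3 or BIC 2 (adjusted p up to 0.0836), and the second without any BIC library (up to 0.0661). Atp6v0a1 encodes an isoform of the large subunit that forms the path of the protons.
It had 99.4, 124 and 115 CPM in YC, 58.4, 62.1 and 61.2 CPM in BIC, and 26.0 to 66.2 CPM in pBIC with a median of 45.4. All 9 lymphoma libraries were below all 3 YC libraries. The level in pBIC fell by 1.27 ± 0.27 on the log2 scale against YC (edgeR adjusted p = 0.00671), a call that remained under all 20 alternative settings. Atp6v0d1, subunit d of the rotor, had 113, 80.3 and 86.9 CPM in YC, 51.6, 84.0 and 78.1 CPM in BIC, and 42.1 to 62.5 CPM in pBIC with a median of 51.5. It fell by 0.84 ± 0.19 in pBIC against YC (log2, adjusted p = 0.00847), with no overlap between those groups and an adjusted p of 0.0571 without YC 1. Atp6v0d1 also lost this call with the replicate number as a block and with the Xist covariate. Its promoter and that of Atp6v0e, shown above, each hold 1 TCACGTG. Atp6v0a2, Atp6v0b and Atp6v0c did not change in any comparison. Atp6v0c shares 27.4% of its exonic bases with other genes and has annotated pseudogene copies, so its counts are uncertain.

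Of the accessory proteins, Atp6ap1 differed most clearly. It lies on chrX:74297097-74304721 (GRCm38) and encodes Ac45, which takes part in assembling the pump. Its level was 121, 125 and 117 CPM in YC, 150, 143 and 140 CPM in BIC, and 61.5 to 95.7 CPM in pBIC with a median of 74.8. All 6 pBIC libraries were below all 6 others. It fell by 0.68 ± 0.14 against YC (log2, edgeR adjusted p = 0.00655) and by 0.93 ± 0.14 against BIC (adjusted p = 0.00194). The first call remained under all 20 alternatives, and the second was lost only with BIC 1 and BIC 2 left out together (adjusted p = 0.156). Atp6ap2, the prorenin receptor, did not change.

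**Figure D2:**
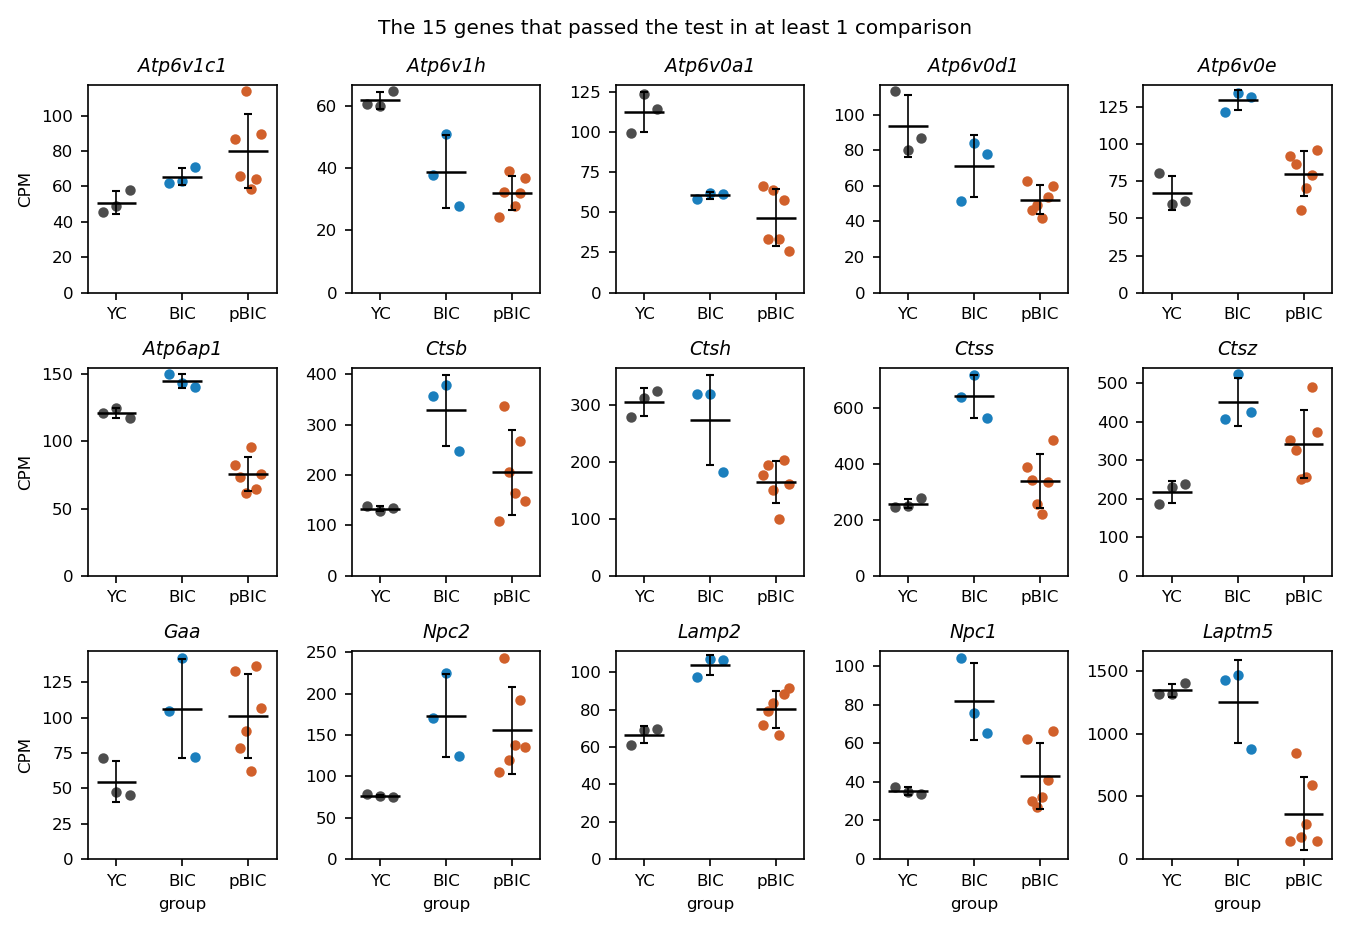
CPM (y axis, from 0) in each of the 12 libraries for the 15 members that changed in at least 1 comparison, with a point per library, a line at each group mean and bars for its SD. Atp6ap1 is low in all 6 pBIC libraries, and Ctss is high in all 3 BIC libraries, at 563 to 717 CPM.

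The cathepsins and legumain together had 575 to 642 CPM per kilobase in YC, 1090 to 1370 in BIC and 536 to 1004 in pBIC. Of these 9 genes 3 rose in BIC against YC and none fell, where 3.90% of all genes tested rose and 4.97% fell. At an unadjusted p under 0.05, 6 were higher and 0 lower, and DESeq2 called 5 higher and 0 lower. Of all 17754 genes tested, 2235 were higher and 2330 lower at that unadjusted p, and DESeq2 called 17.1% in either direction. Ctss encodes cathepsin S, the protease that trims the invariant chain in B cells. It had 246, 250 and 277 CPM in YC, 639, 717 and 563 CPM in BIC, and 220 to 486 CPM in pBIC with a median of 338, pBIC 6 being the highest.
The BIC libraries lay above all 9 others, while pBIC spanned YC. Ctss was 1.31 ± 0.26 higher in BIC than in YC (log2, edgeR adjusted p = 0.0110) and fell by 0.92 ± 0.22 in pBIC against BIC (adjusted p = 0.0126). Without YC 2 the first adjusted p was 0.0514, and without BIC 1 or BIC 2 the second was up to 0.0585. Ctsl encodes cathepsin L, which does the same work in the cortical epithelium of the mouse thymus.
It had 9.31, 5.75 and 6.21 CPM in YC, 5.25, 3.98 and 0.892 CPM in BIC, and 1.05 to 6.02 CPM in pBIC with a median of 4.86. The groups overlapped in pBIC but not between BIC and YC, and no comparison passed the test (adjusted p 0.337, 0.411 and 0.659 in the order above). Per kilobase of exon, the mean level in YC was 190 CPM for Ctss and 3.60 CPM for Ctsl.

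Ctsb (cathepsin B, an endo- and exopeptidase) had 139, 128 and 134 CPM in YC, 357, 379 and 248 CPM in BIC, and 108 to 338 CPM in pBIC with a median of 185. It was 1.30 ± 0.36 higher in BIC than in YC (log2, edgeR adjusted p = 0.0434), with no overlap between them. Removing any 1 of the YC or BIC libraries, or pBIC 3, ended that call (adjusted p up to 0.139). Ctsz, a carboxypeptidase, had 186, 231 and 238 CPM in YC, 407, 524 and 426 CPM in BIC, and 252 to 491 CPM in pBIC with a median of 340.
Every lymphoma library was above every YC library. Ctsz was 1.05 ± 0.25 higher in BIC than in YC (log2, adjusted p = 0.0234), and 0.65 higher in pBIC than in YC, which missed the threshold (adjusted p = 0.0516). The first call was lost without any YC library, BIC 1 or BIC 2 (adjusted p up to 0.0916). Ctsd (cathepsin D, an aspartic protease) had 41.6, 32.8 and 28.7 CPM in YC, 97.5, 75.3 and 55.1 CPM in BIC, and 45.9 to 114 CPM in pBIC with a median of 55.4.
All 9 lymphoma libraries lay above YC, but the differences of 1.15 ± 0.35 for BIC and 0.89 ± 0.31 for pBIC (log2) missed the threshold (edgeR adjusted p = 0.0611 and 0.0585). Ctsd shares 34.4% of its exonic bases with another annotated gene. Ctsh, an aminopeptidase, went the other way. It had 279, 313 and 325 CPM in YC, 321, 319 and 183 CPM in BIC, and 99.9 to 203 CPM in pBIC with a median of 170.
The pBIC libraries were all below YC, while BIC 3 lay within the pBIC range. It fell by 0.89 ± 0.23 in pBIC against YC (log2, adjusted p = 0.0159; up to 0.0723 without YC 2 or YC 3) and by 0.73 ± 0.23 against BIC (adjusted p = 0.0421). The second call was lost without any 1 of 7 libraries (each YC library, BIC 1, BIC 2, pBIC 3 and pBIC 6), with an adjusted p of up to 0.179. Ctsa, Ctsc and Lgmn did not change. In BIC against YC, Ctsc was at 1.47 ± 0.48 (log2, edgeR adjusted p = 0.0784) and Lgmn at 1.11 ± 0.41 (adjusted p = 0.109). For both, the BIC libraries were all above the YC libraries.

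Of the other luminal proteins, Npc2 was called in both models against YC, the only member of the 38 of which this held. It encodes the soluble protein that hands cholesterol to NPC1. Its level was 78.1, 76.4 and 75.2 CPM in YC, 170, 225 and 124 CPM in BIC, and 105 to 243 CPM in pBIC with a median of 136. All 9 lymphoma libraries were above YC. The differences were 1.18 ± 0.31 for BIC (log2, edgeR adjusted p = 0.0360) and 1.02 ± 0.28 for pBIC (adjusted p = 0.0210). Without any 1 YC library both calls were lost, and the BIC call also without BIC 1 or BIC 2 (adjusted p up to 0.134 and 0.0824). Both were also lost with the Xist covariate. The macrophage covariate ended the BIC call, and the replicate number as a block ended the pBIC call.
Gaa, acid alpha-glucosidase, had 71.4, 47.3 and 45.4 CPM in YC, 104, 142 and 72.2 CPM in BIC, and 62.5 to 137 CPM in pBIC with a median of 98.7. Only YC 1 lay within the pBIC range. It rose by 0.89 ± 0.29 in pBIC against YC (log2, adjusted p = 0.0482), a call lost without any 1 of 9 libraries (each YC library, BIC 1, BIC 2 and pBIC 1, 3, 5 and 6; adjusted p up to 0.182) and with size factors by relative log expression. Psap, the precursor of the saposins that help degrade sphingolipids, had 713, 647 and 645 CPM in YC and 1692, 2071 and 1677 CPM in BIC.
In pBIC it ran from 521 to 2102 CPM with a median of 1013. BIC and YC did not overlap, but the difference of 1.44 ± 0.42 (log2) missed the threshold (edgeR adjusted p = 0.0560). Hexa, a hexosaminidase subunit, and Ifi30 (GILT), a thiol reductase that opens disulfide bonds of antigens, did not change, although all 3 BIC libraries were above all 3 YC libraries for both.

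The macrophage marker sums were 261, 263 and 146 CPM in BIC 1, 2 and 3. The cathepsins with legumain summed to 1309, 1370 and 1090 CPM per kilobase there, and the other luminal proteins to 1126, 1274 and 1087. In pBIC 2 and pBIC 6 the marker sums were 63.4 and 357 CPM, and the cathepsin sums 1004 and 927 CPM per kilobase. Whether these sums vary together was not tested. Of the 18 markers, 15 had a positive log2 fold change in BIC against YC, with a median of 2.59. At an unadjusted p under 0.05, 9 were higher and 1 lower, and DESeq2 called 7 higher and 1 lower. By the edgeR test Spic rose and Adgre1 fell, Adgre1 from 25.2 to 28.4 CPM in YC to 3.32 to 4.10 CPM in BIC. In pBIC 6, which had the highest sum of all libraries, Lyz2 made up 233 of the 357 CPM, Csf1r was 24.1 CPM and Adgre1 0.213 CPM. Ccr2 and Ly6c2 were 1.42 and 2.13 CPM there, against 16.2 and 22.0 CPM in BIC 1. In pBIC 6 Ctss was 486 CPM, Ctsb 148 CPM and Npc2 135 CPM. With the mean log2 CPM of the 18 markers as a covariate, no member was called in BIC against YC. There, 9 members were at an unadjusted p under 0.05. The members' median log2 fold change was then 0.33, against 0.37 without the covariate.

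**Figure D3:**
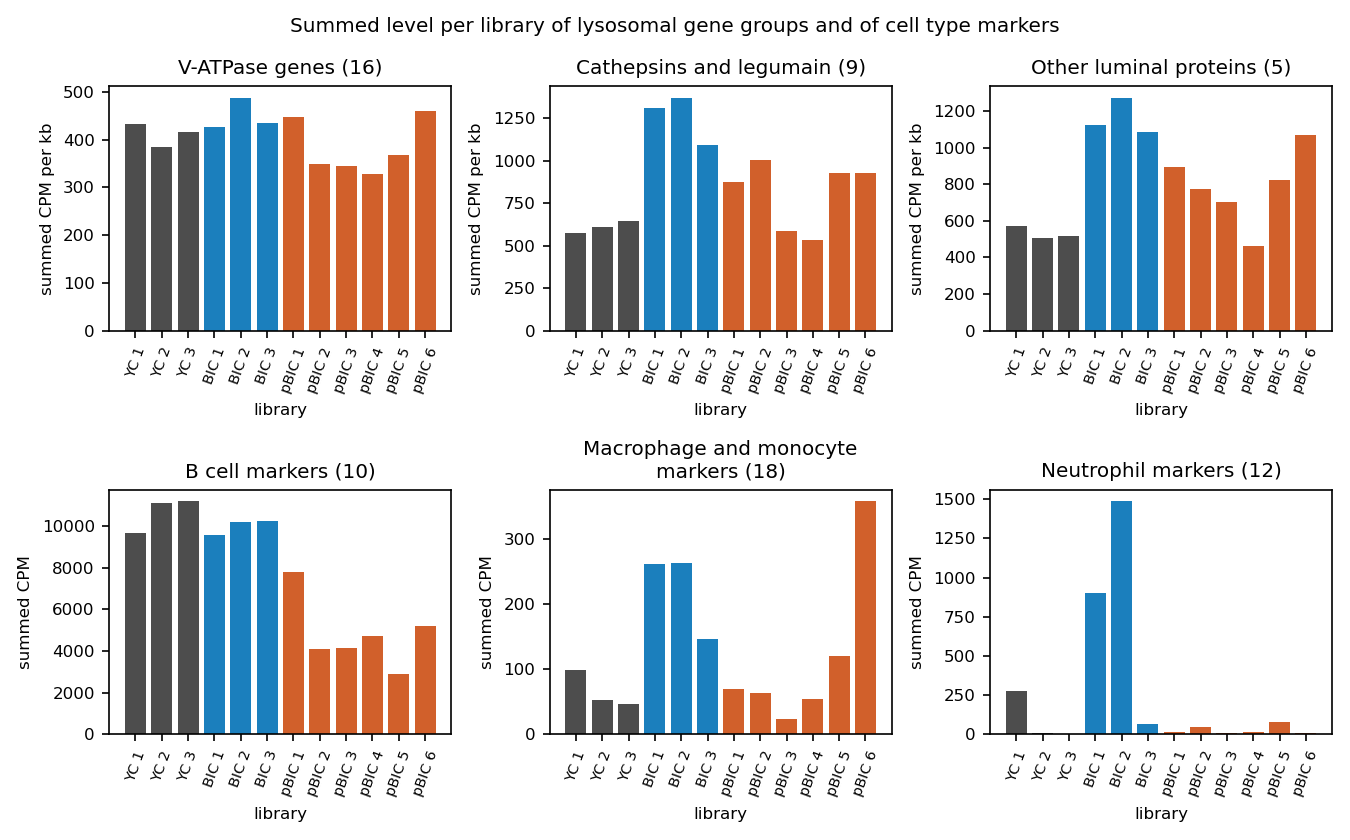
Bars of the summed level in each library (x axis, by group): CPM per kilobase of exon for 3 groups of members in the top row, and CPM for 3 lists of cell type markers in the bottom row. The cathepsins with legumain stand at 1090 to 1370 in BIC against 575 to 642 in YC, while the V-ATPase ranges are 426 to 488 and 386 to 432, and pBIC 6 has the highest macrophage sum, 357 CPM.

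Among the membrane proteins, Laptm5 was the most abundant member in YC per kilobase, at 355 CPM. It lies on chr4:130913125-130936141 and encodes an adaptor of haematopoietic lysosomes that limits B cell receptor levels. It had 1312, 1317 and 1403 CPM in YC, 1422, 1464 and 877 CPM in BIC, and 142 to 843 CPM in pBIC with a median of 228. All 6 pBIC libraries were below all 6 others. In pBIC 1, 3 and 6 it was 142, 174 and 143 CPM, and Xist, read here as a marker of sex, at most 4.22 CPM. In pBIC 2, 4 and 5 Laptm5 was 843, 283 and 591 CPM, and Xist at least 1491 CPM. The part of sex in this spread was not tested. Laptm5 fell by 1.89 ± 0.52 in pBIC against YC (log2, edgeR adjusted p = 0.0217) and by 1.79 ± 0.52 against BIC (adjusted p = 0.0315). The first was lost without any YC library (adjusted p up to 0.0702), and the second without BIC 1, BIC 2, pBIC 3 or pBIC 4 (up to 0.108). The summed B cell markers were lower in pBIC as well, and their part in this result was not tested.
Lamp2, a major glycoprotein of the lysosomal membrane that also serves chaperone-mediated autophagy, had 61.4, 68.9 and 69.9 CPM in YC, 97.8, 107 and 106 CPM in BIC, and 66.4 to 91.7 CPM in pBIC with a median of 81.4. BIC lay above all other libraries. It was 0.64 ± 0.15 higher in BIC than in YC (log2, adjusted p = 0.0261), a call lost without any 1 of the YC or BIC libraries (up to 0.0995). The call was also lost with the Xist covariate, with the macrophage covariate and with no filter on low counts. Lamp2 lies on chrX. Lamp1, its relative, had 153, 126 and 141 CPM in YC, 193, 263 and 162 CPM in BIC, and 124 to 183 CPM in pBIC with a median of 163.
BIC and YC did not overlap for Lamp1, but its difference of 0.56 ± 0.21 (log2) missed the threshold (edgeR adjusted p = 0.114). With 4 copies in its promoter, Lamp1 held the most CACGTG of the members with an entry. Npc1, the membrane cholesterol exporter that takes its cargo from NPC2, had 37.6, 34.8 and 33.6 CPM in YC, 104, 75.6 and 65.5 CPM in BIC, and 27.0 to 66.5 CPM in pBIC with a median of 36.6.
BIC was above YC throughout, and only the highest pBIC library, pBIC 6, reached BIC. It rose by 1.21 ± 0.34 in BIC against YC (log2, adjusted p = 0.0481) and fell by 0.92 ± 0.28 in pBIC against BIC (adjusted p = 0.0412). The first call was lost without any 1 of the YC or BIC libraries or pBIC 5 (up to 0.163), and the second without any 1 of 9 libraries (each YC library, BIC 1, BIC 2 and pBIC 2, 3, 4 and 5; up to 0.195). Mcoln1, a calcium channel, and Scarb2, the receptor that carries glucocerebrosidase, did not change.

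Neither transcription factor changed, although DESeq2 called Tfe3 lower in pBIC than in BIC (adjusted p = 0.0442). Tfeb had 122, 143 and 151 CPM in YC, 106, 154 and 136 CPM in BIC, and 71.0 to 131 CPM in pBIC with a median of 99.6. The ranges overlapped in every comparison, with log2 differences of -0.06 ± 0.24, -0.47 ± 0.20 and -0.41 ± 0.20 for BIC and pBIC against YC and then between the models (edgeR adjusted p = 0.891, 0.112 and 0.174). Tfe3, which lies on chrX, had 64.4, 40.3 and 42.2 CPM in YC, 85.6, 65.9 and 73.9 CPM in BIC, and 45.5 to 65.7 CPM in pBIC with a median of 53.0. BIC was above all other libraries, but its differences from YC (0.62 ± 0.21, adjusted p = 0.0913) and from pBIC (-0.51 ± 0.18, adjusted p = 0.0668) missed the threshold. Activity of these factors is set largely by where they sit in the cell, which RNA does not measure.

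**Figure D4:**
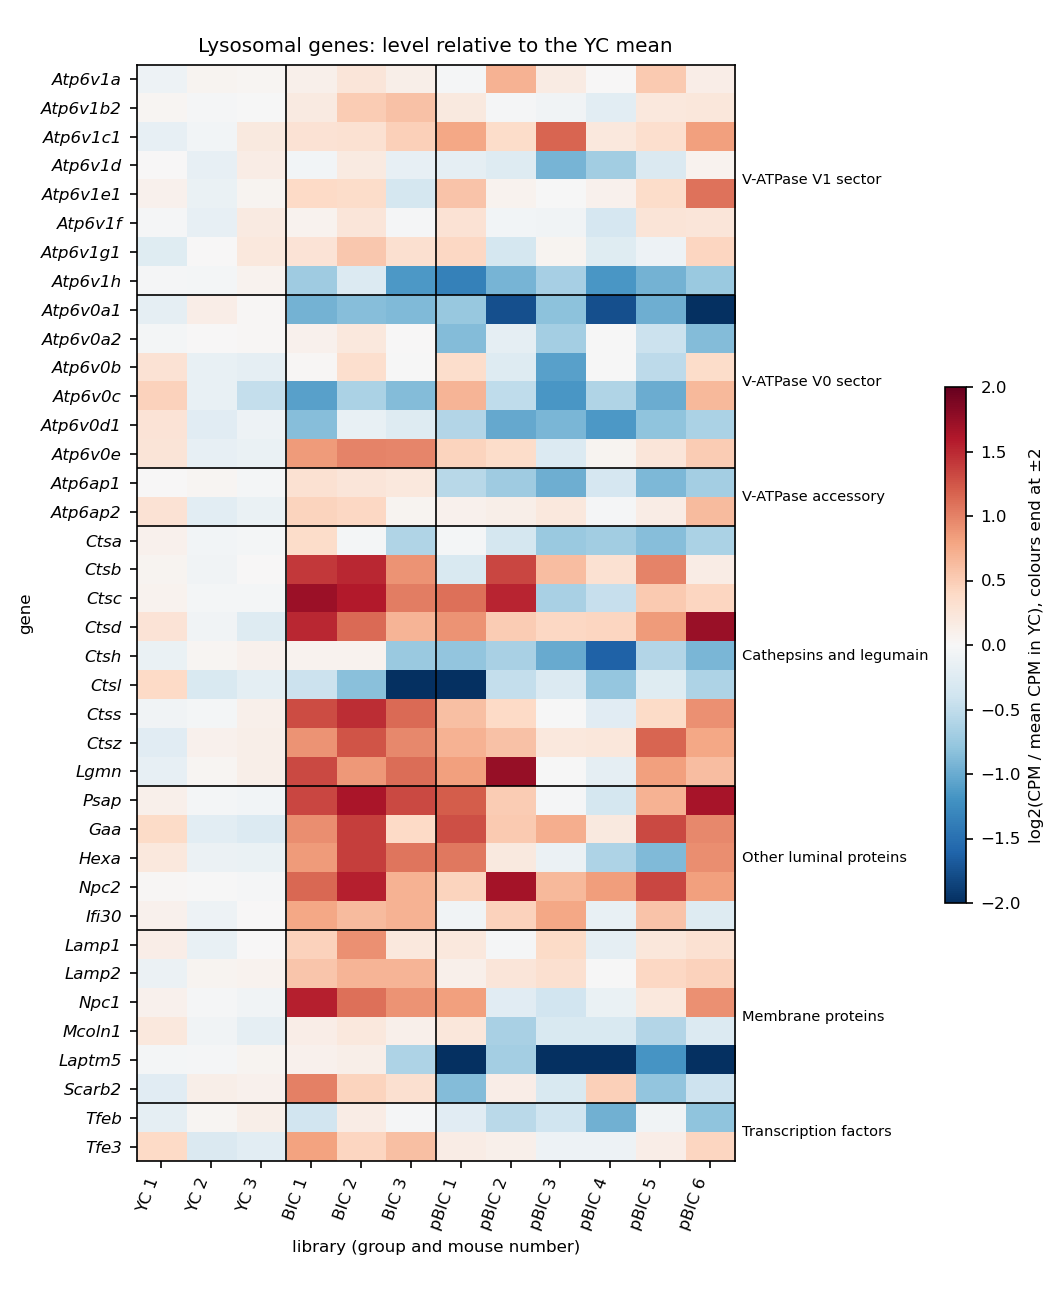
Log2 level of each member (rows, by role) in the 12 libraries (columns, by group), relative to its mean over YC, with colours ending at 2 log2 units either way. Psap is high in BIC and in pBIC 1 and pBIC 6, and Laptm5 is low in every pBIC library.

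Per kilobase of exon the order of abundance differed between groups. In YC it was Laptm5 (355 CPM), Psap (244), Ifi30 (222) and Ctss (190), and in BIC it was Psap (661), Ctss (471), Ifi30 (362) and Laptm5 (331). In pBIC the first were Psap (416), Ifi30 (268) and Ctss (249). The median SD of log2 CPM was 0.15 for members and 0.27 for all genes in YC, 0.22 and 0.34 in BIC, and 0.37 and 0.59 in pBIC. The SD of 5 of the 38 members in YC, 14 in BIC and 8 in pBIC was above that of the median gene. The comparison is with all genes tested, not with genes of like abundance.

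Other genes of the pathway, 170 in all, were examined as lists. In BIC against YC 12 of them were called, 8 higher and 4 lower (7.06%, against 8.88% of all genes tested). For pBIC against YC the count was 32, with 12 higher and 20 lower (18.8%, against 22.0%). For pBIC against BIC it was 37 (21.8%, against 19.7%). Counted in either direction, these shares were near or below the background. The direction in pBIC against BIC differed from the background: 33 of the 37 fell and 4 rose. Of all genes tested, 8.78% fell and 10.9% rose there. In BIC against YC, 1 of 11 other V-ATPase genes rose, Dmxl2, a subunit of the complex that regulates V1 and V0 assembly (154 against 12.3 CPM, log2 3.64 ± 0.63, edgeR adjusted p = 0.00586). Of 28 other membrane or associated proteins 4 rose, among them Grn, the progranulin precursor (470 against 94.4 CPM), Laptm4b and the macrophage-rich Cd68. Of 39 other hydrolases 3 rose and 1 fell. Lipa, acid lipase, was 83.6 against 28.3 CPM and Ppt1, a thioesterase, 91.8 against 50.4 CPM, while Gla, alpha-galactosidase, was 9.16 against 128 CPM. In sorting to the lysosome Vps18 and Plekhm1 fell, 2 of 24. No other cathepsin or cystatin of 11 changed in any comparison (0, 1 and 2 at an unadjusted p under 0.05 in the order above; DESeq2 called 0). Regulators of TFEB (23) and autophagy genes (27) had no call in BIC against YC (4 each at an unadjusted p under 0.05; DESeq2 called 1 and 2).

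In pBIC against BIC, 15 of 39 other hydrolases fell and 1 rose, 38.5% lower against 8.78% of all genes tested, with a median log2 fold change of -0.49. Ids, iduronate sulfatase, had 19.8 against 44.4 CPM, Man2b1, a mannosidase, 154 against 358 CPM and Sgsh, a sulfamidase, 8.96 against 25.0 CPM. The number called in either direction, 16, was 3 without BIC 1, 6 without BIC 2 and 4 with the macrophage covariate, while the median log2 fold change was -0.49, -0.46 and -0.44. Over all genes 1422, 1673 and 1285 were called under those settings, against 3496. In the same comparison 11 of 12 neutrophil markers fell, and their part in this count was not tested. The 7 genes of the invariant chain and of peptide loading on class II all fell in pBIC, against YC and against BIC alike. Of all genes tested 10.2% and 8.78% fell in those comparisons. H2-DMb1 went from 236 CPM in YC and 127 CPM in BIC to 70.8 CPM in pBIC, and Cd74, the invariant chain on which cathepsin S acts, from 9573 and 10536 CPM to 4929 CPM. In pBIC against YC, 3 of 11 other V-ATPase genes rose (Tmem199 and Ccdc115, known for V-ATPase assembly, and Dmxl2), 27.3% against 11.8% of all genes tested. Plekhm1, an adaptor for lysosome fusion, was 38.6 against 179 CPM there. Of 23 regulators of TFEB, Rraga (a Rag GTPase) and Ppp3r1 (a calcineurin subunit) fell and Mtor rose in that comparison. Of 27 autophagy genes 3 fell, led by Atg16l2. The shares that fell were 8.70% and 11.1%, against 10.2% of all genes tested, so both were near the background. The share of regulators that rose was 4.35%, against 11.8% of all genes tested.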

How the data were processed

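The deposited values are raw read counts per gene. They come from featureCounts 1.5.0 over GENCODE M13 exons, per the file headers, without paired-end, strand or multi-mapping options, so mates counted as separate reads and reads on overlapping genes or on antisense partners are uncertain. STAR, FastQC and limma are also named, per the submitters' processing notes. Symbols came from GENCODE M21. GRCm38 coordinates of genes came from the counting annotation, GENCODE M13, and those of promoters from RefSeq. Groups came from sample titles; the names of the deposited tables mark 3 pBIC libraries with h and 3 with l, which the labels do not explain, so pBIC may mix 2 kinds of sample. The header of YC 1 names its input folder by another pattern than the others, with the same settings.

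Counts were fitted in edgeR 4.0.16 (R 4.3.3) with TMM factors, filterByExpr (minimum count 10), robust quasi-likelihood and 1 coefficient per group over all 12 libraries, after a check on simulated data. SE is the absolute log2 fold change over the square root of F. DESeq2 1.42.0 was an alternative. Others were size factors by relative log expression, no filter, 2 groups only, a replicate block, Xist or macrophage covariates, and each library left out. Members and lists were chosen with earlier results of these data known. Values in every library are given for members that changed and for 9 set members, and other list genes by order of p.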

Additional observations from a re-analysis of the deposited data

Results flagged for a closer look

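Among the 38 members, 4 had 1 of the 6 pBIC libraries far from the other 5, where about 1 group in 20 is expected to be marked by chance. Ctsd was 114 CPM in pBIC 6, and the nearest library had 64.2 CPM. Atp6ap2 was 77.4 CPM in pBIC 6, with the nearest at 57.3 CPM. Lgmn was 551 CPM in pBIC 2, with the nearest at 291 CPM. Mcoln1 was 64.9 CPM in pBIC 1, with the nearest at 45.9 CPM. The library pBIC 6 also had the highest summed macrophage markers, 357 CPM, and their part in these values was not tested.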

How the results depend on the processing

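Each call was repeated under 20 alternatives. The 22 calls kept direction in all 440 repeats and the threshold in 298. Those of Atp6v1h, Atp6v0a1 and Atp6ap1 in pBIC against YC were kept under all 20. Members called in BIC against YC numbered 17 with only the 2 groups compared in the fit (28.9% of all genes called there), 0 with the macrophage covariate, 0 with BIC 1 and BIC 2 left out together (chosen after seeing the data), and 0 to 9 with 1 library left out. In pBIC against YC they numbered 4 to 12 with 1 library left out. In pBIC against BIC they numbered 11 by DESeq2, 3 with the 2 groups only, 1 with the macrophage covariate, 0 without BIC 1 and BIC 2, and 1 to 9 with 1 library left out. Of the 170 other pathway genes, 12, 32 and 37 were called in the comparisons in that order. For the first it was 25 by DESeq2, 53 with 2 groups, 4 with the covariate, 0 without both BIC libraries and 6 to 17 with 1 left out. The second ran from 18 to 41 with 1 left out. The third was 23 with 2 groups, 11 with the covariate, 0 without both and 14 to 48 with 1 left out. Hydrolases in pBIC against BIC (16) numbered 9, 4 and 0 under those 3 settings, and 3 to 19 with 1 left out. The cause was not tested, except that leaving out libraries lowers the number of samples.

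Same-numbered samples are not known to share an origin, and their deviations correlated at -0.09 to 0.15, over 0.1 in 3 of 9 pairs. With the replicate number as a block, 9, 7 and 4 members were called, and 10 hydrolases.

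Among called members, the Xist covariate moved Laptm5 in pBIC against YC to -3.28, and Ctsb and Npc1 in BIC against YC to 0.58 and 1.85 (log2).

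The log2 fold changes that changed sign were all uncalled. With Xist as a covariate, Atp6v1a was -0.21 and Atp6v0d1 0.0135 in BIC against YC, and Npc2 0.0859 in pBIC against BIC. With the macrophage covariate, Tfeb was 0.0506 in BIC against YC, and Ctsd, Gaa and Npc2 were 0.20, 0.19 and 0.16 in pBIC against BIC. Without BIC 1 and BIC 2, Atp6v1h, Ctsd, Gaa and Npc2 were 0.20, 0.19, 0.48 and 0.31 there. With 1 library left out, the ranges were -0.0062 to 0.36 for Tfe3 in pBIC against YC, -0.15 to 0.0748 for Tfeb, -0.28 to 0.11 for Ctsh and -0.19 to 0.14 for Laptm5 in BIC against YC, and -0.31 to 0.17 for Gaa, -0.37 to 0.0498 for Npc2 and -0.0756 to 0.87 for Ctsl in pBIC against BIC.

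With 3 mice in YC and in BIC, an adjusted p over 0.05 does not show that levels are alike. Xist was at most 5.13 CPM in YC and at least 1680 CPM in BIC, so sex and group cannot be told apart there. In pBIC 1, 3 and 6 it was 2.58, 4.22 and 3.78 CPM, and in pBIC 2, 4 and 5 it was 2051, 2633 and 1491 CPM. Its level was therefore also uneven between pBIC and either other group.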
